A study of Homo sapiens with 4 samples.

Results

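The regions described here were the HAUSP peaks of H1299 cells that overlapped a HAUSP peak of MDA-MB-231 cells by at least 1 bp and touched no gene TSS window, which reached 500 bp to each side. They were thus chosen by their presence in both lists, and so in part by their scores, and by their distance from genes. They numbered 448 of the 1379 HAUSP peaks of H1299 and are called distal shared peaks below. Antibodies to HAUSP were used on H1299, which is derived from lung cancer, and on MDA-MB-231, which is derived from breast cancer, and an antibody to HIF-1α was used on H1299. The antibody is the only treatment that the labels name, and they do not give the oxygen level of the cultures. Each list came from 1 library without a replicate, the H1299 input library was not analysed here, and whether these regions also gather reads without an antibody was not tested.

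HAUSP, also called USP7, is a deubiquitinase that removes ubiquitin from proteins such as MDM2, and it is an enzyme rather than a sequence-specific transcription factor. HIF-1α is the oxygen-regulated subunit of the factor that activates hypoxia genes through a short core sequence, one form of which is ACGTG. The DNA next to human centromeres is built from alpha satellite, a short unit in tandem copies, and from satellites that repeat GGAAT, while the genes of ribosomal RNA stand in arrays on the short arms of some chromosomes. Much of this DNA is missing from the reference and appears there as long runs of the letter N. All long runs of N are called assembly gaps below, whatever DNA they stand for. The comparison asks what HAUSP peaks found in both lines away from promoters consist of, and how far HIF-1α was found at them.

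Sequences that stand for each kind of distal shared peak are given first, from the plus strand of GRCh37. Among the ribosomal matches on the side of the unit that holds the 28S gene, 2 high-scoring peaks carried long stretches of ribosomal DNA, in capitals, next to flanking DNA in lower case, and both stretches run past the printed end.
chr1:91852753-91853052: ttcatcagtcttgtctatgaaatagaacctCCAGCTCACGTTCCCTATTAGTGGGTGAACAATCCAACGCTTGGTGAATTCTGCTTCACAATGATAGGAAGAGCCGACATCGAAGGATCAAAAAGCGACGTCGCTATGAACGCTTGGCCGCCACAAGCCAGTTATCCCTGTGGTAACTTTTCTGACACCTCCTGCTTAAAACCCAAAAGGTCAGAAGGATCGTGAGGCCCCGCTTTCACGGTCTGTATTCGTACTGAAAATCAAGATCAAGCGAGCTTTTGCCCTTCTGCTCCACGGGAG
chr11:85194981-85195280: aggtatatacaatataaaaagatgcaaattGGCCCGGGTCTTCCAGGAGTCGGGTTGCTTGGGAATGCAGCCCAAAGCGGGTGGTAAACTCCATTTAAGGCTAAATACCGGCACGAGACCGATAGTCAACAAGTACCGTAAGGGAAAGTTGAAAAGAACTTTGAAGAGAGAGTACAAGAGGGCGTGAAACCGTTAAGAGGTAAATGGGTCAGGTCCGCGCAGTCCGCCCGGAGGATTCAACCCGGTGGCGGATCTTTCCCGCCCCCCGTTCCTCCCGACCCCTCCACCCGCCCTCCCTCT

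The highest-scoring peak with a tandem unit of the length of alpha satellite is shown as 2 adjacent units, in which capitals mark the bases that differ between them. They differed at 24 bases.
chr5:49405779-49405949: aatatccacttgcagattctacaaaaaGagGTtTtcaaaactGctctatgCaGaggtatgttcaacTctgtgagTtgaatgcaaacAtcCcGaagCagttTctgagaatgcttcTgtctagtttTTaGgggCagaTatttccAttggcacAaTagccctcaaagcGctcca
chr5:49405950-49406120: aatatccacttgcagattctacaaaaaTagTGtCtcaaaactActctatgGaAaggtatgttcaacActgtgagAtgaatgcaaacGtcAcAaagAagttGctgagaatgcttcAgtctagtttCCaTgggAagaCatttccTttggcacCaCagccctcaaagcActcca
In the highest-scoring GGAAT peak and in the highest-scoring GGAAT peak of chromosome Y, capitals mark GGAAT or its complement, which occurred 19 and 20 times in 150 bases.
chr10:38818649-38818798: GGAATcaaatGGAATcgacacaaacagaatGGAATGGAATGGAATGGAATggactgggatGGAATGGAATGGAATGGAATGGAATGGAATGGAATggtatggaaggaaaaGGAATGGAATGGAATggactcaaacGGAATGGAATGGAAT
chrY:13869059-13869208: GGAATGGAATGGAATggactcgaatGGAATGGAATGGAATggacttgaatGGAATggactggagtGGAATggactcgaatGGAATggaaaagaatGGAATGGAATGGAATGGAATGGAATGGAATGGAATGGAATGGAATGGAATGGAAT
A tandem repeat outside these families had a unit of 98 bases on chromosome 20, and capitals again mark the 4 bases that differed between adjacent units.
chr20:46523544-46523641: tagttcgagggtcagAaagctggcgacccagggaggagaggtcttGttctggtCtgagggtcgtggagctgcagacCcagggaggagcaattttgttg
chr20:46523642-46523739: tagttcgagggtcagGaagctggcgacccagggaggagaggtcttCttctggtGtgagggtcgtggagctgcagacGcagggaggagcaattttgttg

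Windows from distal shared peaks that overlapped a HIF-1α peak come next. Each was picked for its copies of ACGTG, as the windows above were picked for the feature they show. They are therefore examples and not a comparison. Capitals mark ACGTG on either strand within the HIF-1α peak, first in PFKFB4, PGK1 and SLC2A3, then in an intron of VGLL4 and in a satellite next to a gap of chromosome 1.
chr3:48594668-48594767: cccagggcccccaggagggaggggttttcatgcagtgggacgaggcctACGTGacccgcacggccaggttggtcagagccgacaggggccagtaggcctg
chrX:77359505-77359604: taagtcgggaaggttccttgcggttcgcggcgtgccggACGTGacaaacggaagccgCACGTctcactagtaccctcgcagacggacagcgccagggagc
chr12:8123675-8123774: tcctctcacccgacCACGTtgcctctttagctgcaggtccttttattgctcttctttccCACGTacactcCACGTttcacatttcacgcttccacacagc
chr3:11683718-11683817: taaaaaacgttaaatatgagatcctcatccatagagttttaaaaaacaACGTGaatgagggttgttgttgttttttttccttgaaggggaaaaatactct
chr1:121484632-121484731: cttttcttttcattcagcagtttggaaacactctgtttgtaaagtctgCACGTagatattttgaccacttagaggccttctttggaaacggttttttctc

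More of the distal shared peaks lay beside assembly gaps than of the other HAUSP peaks. A gap was a run of N of at least 50 kb, of which the reference holds 259, and 248 of the 448 peaks (55.4%, exact 95% interval 50.6 to 60.02) lay no farther than 1 Mb from one. Over all 1379 HAUSP peaks of H1299 the share was 37.8%. Among distal peaks found in H1299 alone it was 37.3% (176 of 472), a difference of 18.1 points with a Newcombe 95% interval of 11.7 to 24.3. Among promoter peaks found in both lines it was 27.8% (27 of 97), a difference of 27.5 points (16.8 to 36.7). These intervals cover counting error only, since peaks of 1 library are not replicates and neighbouring peaks can share a repeat. Only 4.96% of the 4053 HIF-1α peaks on whole chromosomes lay as close to a gap. That list is named as made after duplicate reads were removed, and whether this was also done for the HAUSP lists is not given in the sources used here. What part this has in the difference was not tested.

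The sequence within that distance of a gap made up 10.2% of the reference without N and held 0.855 distal shared peaks per Mb, against 0.0779 per Mb elsewhere. Around the 28 gaps of at least 1 Mb, which mark centromeres, heterochromatin and short arms, it was 3.26 per Mb. This 1.57% of the sequence held 146 of the 448 peaks (32.6%), against 17.3% of all HAUSP peaks of H1299. It held 15.0% of the distal peaks of H1299 alone and 10.3% of the promoter peaks of both lines. The distance to the nearest gap had a median of 634471 bp for the distal shared peaks and of 2662097 bp for the distal peaks of H1299 alone. The peaks touched a gap in 18 cases, and 20 included bases read as N.

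The density differed widely between chromosomes. Chromosome Y held 27 distal shared peaks, or 1.17 per Mb without N, against 0.157 per Mb over the whole reference, and all 27 lay near a gap of at least 1 Mb. Chromosome 19 followed at 0.358 per Mb with 20 peaks, of which 14 lay away from gaps. Chromosome 9 held the most peaks, 38, with 24 near a gap, and chromosomes 13 and 15 held the fewest, 5 each. On chromosome X, 11 of 12 peaks lay near a gap, whereas on chromosome 14 none of 9 did. Whether either line carries chromosome Y is not given in the sources used here. Peaks on Y, here and below, are therefore named by their place in the reference only. Whether reads from repeats on other chromosomes were placed there was not tested.

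Some of the peaks stood in groups. When distal shared peaks no more than 100000 bp apart were joined, 180 of the 448 stood in 55 groups of at least 2, and 268 stood alone. Other HAUSP peaks were not grouped, so whether this is particular to the distal shared peaks was not tested. The largest group held 15 peaks on chromosome Y from 13648732 to 13870188 (221.5 kb, nearest gene RCC2P1), and all 15 were GGAAT satellites. Their scores ran from 64.5 to 322.33 in H1299 with a median of 120.11, and from 55.91 to 348.59 in MDA-MB-231 with a median of 117.02. The ranges were nearly the same, and the order of the 15 was much alike in both lines (Spearman's rho 0.868, a description over 15 peaks that share a repeat). The next groups were 8 peaks on chromosome Y from 9918975 to 10045006, 7 on chromosome 2 from 92267327 to 92322576 and 7 on chromosome 4 from 49289017 to 49325944. All of these lay near a gap of at least 1 Mb, and none held a HIF-1α overlap.

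Each peak was then placed in a repeat class from its own sequence. A tandem repeat was called where at least 0.6 of the bases equalled the base 1 unit further on, at the best unit of 5 to 400 bases. Such repeats made up 26.6% of the distal shared peaks (119 of 448; 22.5 to 30.9), 12.7% of all HAUSP peaks of H1299 and 11.0% of the distal peaks of H1299 alone (52 of 472), a difference of 15.5 points (10.5 to 20.5). Only 1 of 97 promoter peaks of both lines had one. The share depends on the limit, and was 47.1% of the distal shared peaks at an identity of 0.5 and 1.79% at 0.8. Windows of the same width were taken 10 kb to either side of the distal shared peaks. Those that overlapped another HAUSP peak were not left out, here and below. In these windows the share at an identity of 0.6 was 12.3% (104 of 847). Beside the peaks near gaps it was 22.1% (99 of 447), against 37.1% in those peaks themselves.

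The GGAAT satellites made up 54 of the 448 peaks (12.1%, 9.19 to 15.4) and 5.51% of all HAUSP peaks of H1299, against 21 of 472 distal peaks of H1299 alone (4.45%), a difference of 7.60 points (4.09 to 11.3). A peak was placed here with at least 20 copies of GGAAT or its complement per kb, and no peak held between 18.4 and 37.4. They stood on 13 chromosomes, 51 of 54 near a gap, and were wide, with a median of 1878 bp. Near gaps they made up 20.6% of the distal shared peaks and 13.0% of the windows beside them. The highest was chr10:38815476-38818980 (score 1128.19 in H1299, 1524.11 in MDA-MB-231; nearest gene CICP9), which touched a gap. It was followed by chr1:142535286-142541445 (754.69 and 574.39) and chr2:90371508-90373592 (642.62 and 854.94). Neither line had the higher score throughout, since MDA-MB-231 was higher in 29 of the 54.

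Tandem repeats with a unit close to that of alpha satellite or to its double numbered 30, on 15 chromosomes, and 29 of them lay near a gap. With 1 more such peak that also had many GGAAT copies, 6.92% of the distal shared peaks held this unit, 2.97% of all HAUSP peaks of H1299 and 2.12% of the distal peaks of H1299 alone, a difference of 4.80 points (2.15 to 7.70). In the windows beside the distal shared peaks the share was 5.55% (4.1 to 7.31), and near gaps it was 12.1% of the peaks and 9.84% of the windows, with exact intervals that overlap (8.31 to 16.8 and 7.24 to 13.0). At an identity of 0.5 the count was 64 (14.3%), against 6.38% of all HAUSP peaks of H1299 and 4.87% of the distal peaks of H1299 alone. In the windows beside the distal shared peaks the share at this identity was 11.33%. Near gaps it was 20.13% of the windows (16.51 to 24.16) and 24.19% of the distal shared peaks (19.0 to 30.02), again with intervals that overlap. The highest, chr5:49405558-49406125 (568 bp; 1394.37 in H1299, 1332.17 in MDA-MB-231; nearest gene EMB), touched the centromere gap, and its 2 units are printed above. The core of the CENP-B box, TTCGNNNNANNCGGG searched on both strands, which the centromere protein CENP-B recognises in alpha satellite, stood in 13 of the 30. It stood in 44 of all 448 distal shared peaks (9.82%), 4.13% of all HAUSP peaks of H1299 and 6.26% of the windows beside the distal shared peaks.

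Some peaks outside this class were linked to it by shared words of 16 bases. Distal shared peaks with at least 100 such words in common were joined, also where the link ran through another peak. Other HAUSP peaks and the windows were not joined, so whether such families are particular to the distal shared peaks was not tested. The largest family held 91 peaks on 18 chromosomes, 86 of them near a gap. Of the 91, 77 had a best repeat unit, at any identity, close to that of alpha satellite or to its double. The family included 30 peaks of the alpha satellite class, 15 GGAAT peaks and 46 in no class. The top of both lists, chr1:121481843-121485583 (score 2905.27 in H1299, 2883.17 in MDA-MB-231; nearest gene LINC01691), belonged to it, with the unit of alpha satellite at an identity of 0.499, under the limit of 0.6. So did chr6:58773486-58779852 (1855.52 and 1404.09; ENSG00000275046) and chr4:68263768-68267172 (1887.9 and 949.5; RNU1-63P). The last stood 8474435 bp from the nearest gap, 1 of 5 peaks of the family away from gaps.

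The 52 other tandem repeats made up 11.6% of the distal shared peaks, against 23 of 472 distal peaks of H1299 alone (4.87%). Of the 97 promoter peaks of both lines 1 was in this class, and the share over all HAUSP peaks is not given here. The 52 had 31 different units of 5 to 298 bases, and in 8 peaks the unit was of 6 bases. They spread over 21 chromosomes with 26 near a gap and 6 near one of at least 1 Mb. The highest was chr9:140221747-140223066 in an intron of EXD3 (1012.91 in H1299, 317.72 in MDA-MB-231). A pair on chromosome 20, chr20:46523317-46525054 (471.13 and 844.34; nearest gene RNU7-92P) and chr20:47131265-47132952 (465.14 and 543.84; RNU7-144P), shared a unit of 98 bases. In this class MDA-MB-231 had the higher score in 36 of 52.

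Ribosomal sequence was found in few of the distal shared peaks. None of the 448 peaks matched the 541 annotated rRNA transcripts and pseudogenes, (exact 95% interval 0 to 0.82%, while a limit of 3 counts gives 0.67%), but this annotation holds no 18S or 28S gene, and a short annotated gene inside a peak would have brought its own TSS window. The ribosomal DNA unit on the unplaced contig GL000220.1 was therefore used, a choice made after the data were seen. A stretch of at least 100 bases at 80% identity or more was found in 12 peaks (2.68%, 1.39 to 4.63), against 1.45% of all HAUSP peaks of H1299, 3 of 472 distal peaks of H1299 alone (0.636%, difference 2.04 points, 0.376 to 4.03), 5 of 97 promoter peaks of both lines (5.15%) and 1 of 847 windows beside the peaks. The share did not differ from that of promoter peaks beyond counting error (-2.48 points, -8.93 to 1.04).

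The 12 ribosomal matches were spread over 10 chromosomes, and only 3 lay near a gap. Their scores in H1299 ran from 53.76 to 2535.68 with a median of 362.6, and 5 of the 12 were among the 50 highest of that list. Their identity to the unit ranged from 82.6% to 99.7%, their length from 143 to 2250 bases, and 8 lay after the 5.8S gene, where the 28S gene stands. The highest, chr1:91852361-91853264 in an intron of HFM1 (2535.68 in H1299, 1506.51 in MDA-MB-231), was the second peak of the H1299 list and held 366 bases at 99.7% identity. The next, chr21:9826851-9828560 (2223.34 and 2445.2; nearest gene MIR3687), lay 1414 bp from a gap and held 733 bases at 99.05%. H1299 had the higher score in 10 of the 12. Stretches from the mitochondrial genome were found in none of the 448.

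**Figure D1:**
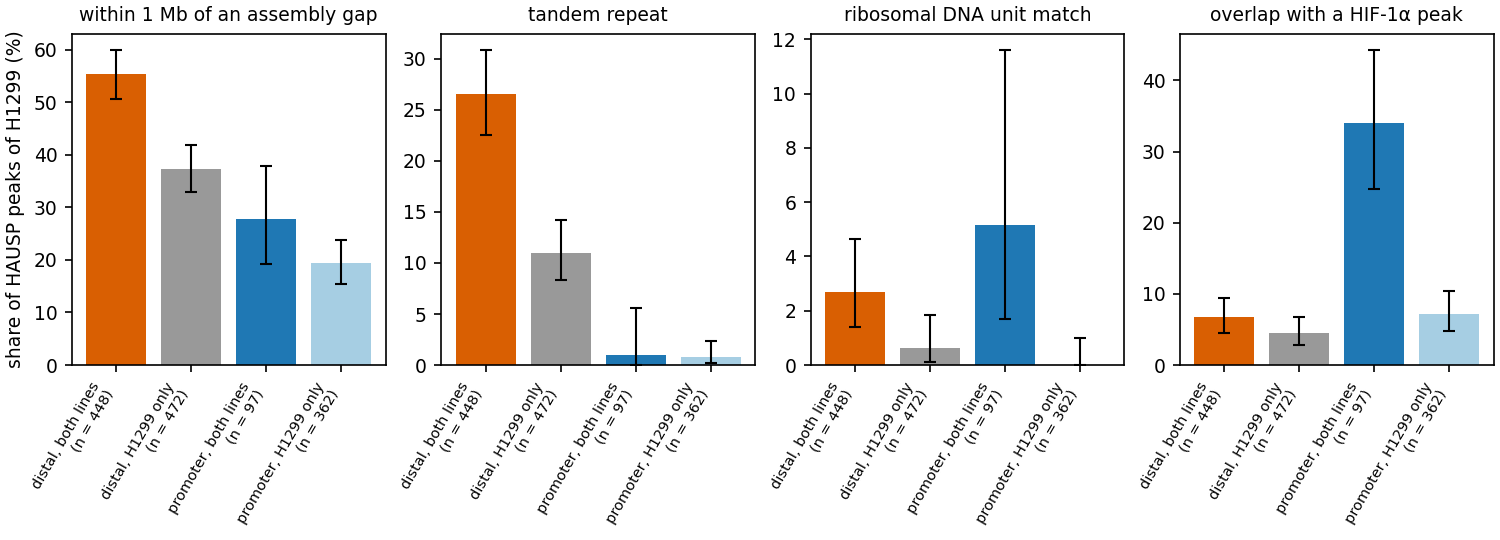
Share of HAUSP peaks of H1299 (vertical axes, %, each from 0 on its own scale) with 4 features, by group of peaks, with exact 95% intervals as error bars and tandem repeats called at an identity of 0.6. The distal shared peaks had the highest shares near gaps and with a tandem repeat, and the promoter peaks of both lines the highest share that overlapped HIF-1α, 34.0% against 6.70%.

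The remaining 300 peaks, 67.0% of the distal shared peaks against 87.7% of the distal peaks of H1299 alone, were in none of these classes. Among them 139 lay near a gap, and 229 shared fewer than 100 words of 16 bases with any other distal shared peak, 148 of which also lay away from gaps. The strongest of the 300 were the 3 peaks of the largest family named above. They were followed by chr17:41399359-41401349 (1106.53 and 537.54, nearest gene LINC00854) and the peak in PGK1 described with HIF-1α. The peak of chromosome 17 stood close to another, chr17:41381190-41382779 (652.57), which stood 559 bp from a TSS.

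Less of the sequence of the distal shared peaks occurs once in the reference than of the other peaks. The submitters kept reads that mapped to 1 place only, and the share of 32-base words of a peak that occur once in the reference had a median of 76.3% over the distal shared peaks, 93.2% over the distal peaks of H1299 alone and 98.2% over the promoter peaks of both lines. Under 50% of the words were unique in 107 of 448 (23.9%) against 71 of 472 (15.0%), a difference of 8.84 points (3.73 to 13.9). Away from gaps the shares were 7.5% and 7.43%. In the windows beside the peaks the median was 76.8%, close to that of the peaks. What part the mapping of reads to repeats has in these peaks was not tested.

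**Figure D2:**
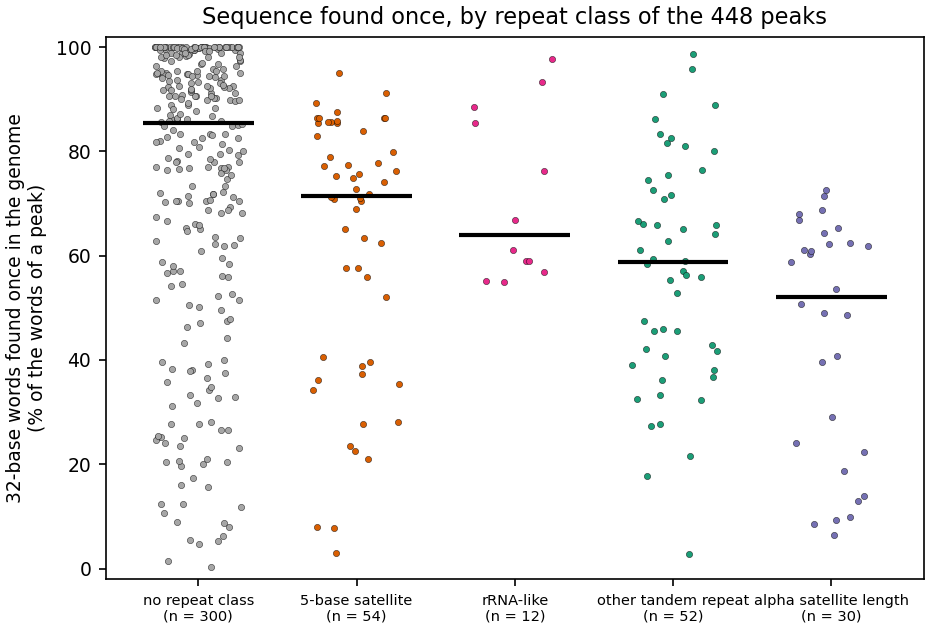
Share of the 32-base words of each distal shared peak that occur once in the reference (vertical axis, %), by repeat class, with 1 point per peak and a bar at the median. The medians were 85.5% without a class, 71.5% for GGAAT (labelled as the 5-base satellite), 64.0% for rRNA-like, 58.7% for other tandem repeats and 52.1% for tandem repeats of the alpha satellite length.

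Scores followed the rule in part, because a high peak in 1 list is more often found in the other, so they are given as a description. The score is the authors' value from the peak caller, and its scale is not named. Its median was 106 for the 448 distal shared peaks (quartiles 73.7 and 204), 63.0 for the distal peaks of H1299 alone and 117 for the promoter peaks of both lines. The 10 highest peaks of H1299 were all distal shared peaks, as were 41 of the 50 highest, and 32 of these 41 were also among the 50 highest of MDA-MB-231. Of the distal peaks of H1299 with a score under 60, 19.1% (48 of 251) were found in both lines, and of those at 200 or over 94.96% (113 of 119).

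Within ranges of the H1299 score the shares near a gap and with a repeat class were higher for the distal shared peaks, though not always beyond counting error. Between 50 and 75, 45.8% of 120 distal shared peaks and 35.5% of 346 distal peaks of H1299 alone lay near a gap (10.3 points, 0.206 to 20.4), and 24.2% and 10.4% had a repeat class (13.8 points, 6.05 to 22.6). Between 75 and 100 the share near a gap was 58.9% of 90 and 44.7% of 76, an interval that includes 0 (14.1 points, -1.05 to 28.5), and the share with a repeat class was 27.8% and 18.4%, also with 0 in the interval (9.36 points, -3.70 to 21.6). Between 100 and 200 it was 57.6% of 125 and 43.2% of 44, again with 0 in the interval (14.4 points, -2.61 to 30.3), while a repeat class was present in 36.8% and 18.2% (18.6 points, 2.71 to 30.9). At 200 or over only 6 distal peaks were found in H1299 alone, of which 0 lay near a gap and 0 had a repeat class, against 60.2% and 42.5% of 113 distal shared peaks.

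The place and height of the 448 peaks in both lines are given as a description, since the peaks were chosen by their overlap. The scores of the 448 in H1299 and MDA-MB-231 had a Spearman's rho of 0.719, which was 0.792 over the 248 near gaps and 0.612 over the 200 away from them, a description since peaks share a library and repeats. H1299 was higher in 225 of 448, and the ratio of H1299 to MDA-MB-231 had a median of 1.0 with quartiles of 0.746 and 1.31. The ratio was lowest, 0.195, at the GGAAT peak chr16:46424333-46430478 (191.56 and 983.02) and highest, 6.12, at chr14:70512352-70513589 in SLC8A3 (390.53 and 63.79), a sodium and calcium exchanger. Where 2 peaks met, the overlap covered at least 90% of the shorter in 423 of 448, and in 270 the shorter lay wholly inside the longer.

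**Figure D3:**
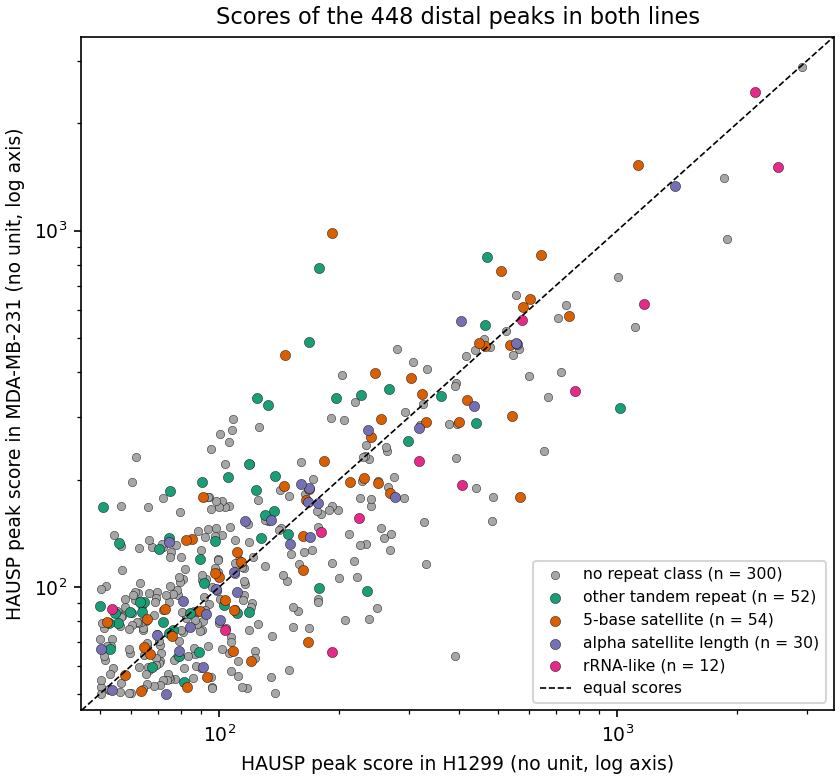
HAUSP peak score in H1299 (horizontal axis, no unit, log scale) against the score of the best overlapping peak in MDA-MB-231 (vertical axis, no unit, log scale), with 1 point per distal shared peak coloured by repeat class (the 5-base satellite is GGAAT) and a dashed line of equal scores. The 448 points scatter about the line, with 225 of them below it.

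The peaks that stood closest to the limits of overlap and of distance to a gene TSS are given next. The smallest overlap with a MDA-MB-231 peak was 360 bp, at chrX:61709673-61710032 (score 70.74), while the nearest peak that failed to overlap lay 156 bp away, and another, chrY:13651756-13652346 (72.67), 206 bp away. The distal shared peak nearest to a TSS stood at 559 bp, and the shared promoter peak farthest from the TSS whose window it touched, chr1:149032444-149035912 (393.19), at 465 bp.

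Width was also tied to the rule, because a wide peak overlaps more readily. The median was 1247 bp (quartiles 986 and 1871) for the distal shared peaks, 1135 bp for the distal peaks of H1299 alone and 1164 bp for the promoter peaks of both lines. Near gaps it was 1361 bp and away from them 1188 bp. All 19 distal shared peaks wider than 5 kb lay near a gap.

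Genes held fewer of the distal shared peaks than of the distal peaks of H1299 alone. The centre stood between genes in 279 of 448 (62.3%, 57.6 to 66.8) and in 198 of 472 (41.9%, 37.5 to 46.6), in an intron in 33.7% and 47.7%, and in an exon in 4.02% and 10.4%. Away from gaps 43.5% of 200 and 31.8% of 296 stood between genes. The nearest TSS had a median distance of 19208 bp for the distal shared peaks. Counted over the TSS of every transcript, 33 of the 448 (7.37%) touched a window of 500 bp, against 18.2% of the distal peaks of H1299 alone, so some were at promoters that the gene-level rule does not see.

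HIF-1α was found at few of the distal shared peaks. An overlap of at least 1 bp was present in 30 of 448 (6.70%, 4.56 to 9.42), against 7.98% of all HAUSP peaks of H1299. It was present in 21 of 472 distal peaks of H1299 alone (4.45%, difference 2.25 points, -0.745 to 5.35, which includes 0) and in 33 of 97 promoter peaks of both lines (34.0%, difference -27.3 points, -37.4 to -18.3). Away from gaps the share was 12.5% of 200, against 6.42% of 296 distal peaks of H1299 alone, a difference of 6.08 points (0.924 to 11.8). Their scores differed as well. Among peaks away from gaps with a score between 50 and 75 the share was 3.08% of 65 and 3.14% of 223 (-0.0621 points, -3.96 to 7.58), between 75 and 100 it was 8.11% of 37 and 7.14% of 42 (0.965 points, -12.0 to 15.0), and between 100 and 200 it was 8 of 53 and 6 of 25 (-8.91 points, -29.6 to 8.40). At 200 or over it was 12 of 45 and 3 of 6. With the peaks near gaps included, the shares were 1.67% and 2.31%, 3.33% and 5.26%, and 8.0% and 13.6% in the same 3 ranges, each with 0 in the interval of the difference. At 200 or over they were 15 of 113 and 3 of 6.

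The 30 peaks with HIF-1α differed from the other 418 in place and sequence. Only 5 of 30 (16.7%) lay near a gap against 243 of 418 (58.1%), a difference of -41.5 points (-51.9 to -23.9), and none had a repeat class, against 35.4% (-35.4 points, -40.1 to -23.2). Even so, 2 of the 30 belonged to the largest family described above, in which most peaks had the unit length of alpha satellite or its double. These were chr1:121481843-121485583 and chrX:58561023-58561991. Their best unit was that of alpha satellite, at identities of 0.499 and 0.424, under the limit for a tandem repeat. Over the 30 peaks the share of unique 32-base words had a median of 99.8%, against 72.7% over the 418. The median HAUSP score was 202 in H1299 and 131 in MDA-MB-231, against 101.4 and 111.5 without HIF-1α, and H1299 had the higher score in all but 4 of the 30.

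The core ACGTG, searched on both strands, stood in 30 of 30 and, within the HIF-1α peak itself, in 27 of 30. It stood in 49.3% of the 418 others, in 64.0% of the 136 of them without a repeat class and away from gaps, in 63.5% of all HAUSP peaks of H1299 and in 50.2% of the windows beside the distal shared peaks. A core of 5 bases is frequent in windows of this width, and its presence is a description, not a site.

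The HIF-1α score was highest at PFKFB4, an enzyme that sets the level of a regulator of glycolysis, with 561.08 at chr3:48594204-48595293 in an intron (HAUSP 487.34 in H1299 and 178.31 in MDA-MB-231). An intron of VGLL4, a cofactor of TEAD factors, followed with 371.4 at chr3:11683660-11684761 (565.39 and 464.15). The third was the satellite chr1:121481843-121485583, the top HAUSP peak of both lines, with a HIF-1α score of 318.99. PGK1, a glycolytic enzyme, held chrX:77359063-77360312 in an intron of its longest form, with a HIF-1α score of 295.54 (1006.44 and 738.53). This peak touched the TSS of another PGK1 transcript, and the peaks at PFKFB4 and at RNF145 touched those of further transcripts of their genes, so these were distal only by the gene-level rule.

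Next came chr1:11989555-11990535, nearest to KIAA2013 (HIF-1α 292.13; HAUSP 441.57 and 189.36), and an exon position at chr22:30819545-30820694, nearest to MTFP1, a mitochondrial fission protein (264.28; 191.62 and 116.37). They were followed by RNF145, a ubiquitin ligase (263.46; 147.68 and 103.85 at chr5:158634294-158635875), IL1RAP, a coreceptor of interleukin-1 (217.62; 191.07 and 297.52 at chr3:190283837-190285152), and SLC8A3 (205.3; 390.53 and 63.79). The tenth, chr10:74020187-74021506, lay between genes with ENSG00000289506 nearest (196.71; 484.89 and 152.91). HAUSP was higher in H1299 in 9 of these 10, and the exception was IL1RAP. Over the 30 the HIF-1α score had a median of 111, ran from 51.36 to 561.08 and correlated with the HAUSP score of H1299 at a Spearman's rho of 0.565, a description of peaks from 2 libraries of that line.

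**Figure D4:**
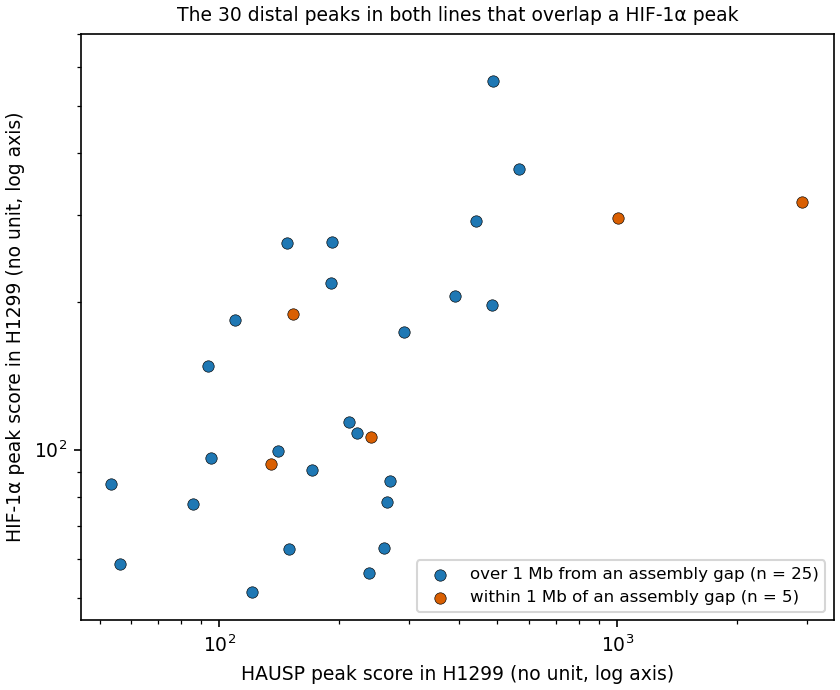
HAUSP peak score (horizontal axis, no unit, log scale) against HIF-1α peak score (vertical axis, no unit, log scale), both in H1299, for the 30 distal shared peaks that overlap a HIF-1α peak, coloured by distance to an assembly gap. HIF-1α scores run from 51.36 to 561.08, and 5 of the 30 points lie within 1 Mb of a gap.

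Of 41 genes of the hypoxia response, 4 held a distal shared peak or were the nearest gene of one, namely PFKFB4, PGK1, SLC2A3 and KDM4B, against 0.718% of all annotated genes. That share runs over genes of every type, and neither the type nor the length of genes was taken into account. SLC2A3, a glucose transporter, held chr12:8122300-8124394 in an intron (HAUSP 153.08 in H1299 and 87.97 in MDA-MB-231; HIF-1α 188.24). KDM4B, a histone demethylase, held chr19:5018657-5020635 in an intron (122.96 and 63.22) without a HIF-1α peak. Another 4, ANGPTL4, CA12, KDM4C and PLOD2, were at distal peaks of H1299 alone, for which the share over all annotated genes is not given here.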

How the data were processed

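ChIP-seq for HAUSP was done in MDA-MB-231 and in H1299, and for HIF-1α in H1299, with 1 library each. Per the submitters' processing notes, reads were mapped to hg19 with Bowtie 0.12.7, and peaks were called with MACS 1.4.2. Which control the peaks were called against is not given in the sources used here. The authors deposited, per library, a list of peaks with their positions and a score (1343, 1379 and 4054 peaks); the lowest scores were 50.0 to 50.03 and no scale is named. Read depth is unknown. Starts were converted to count from 1 and chromosome names made uniform. Genes, transcripts and sequence came from GENCODE release 44 lifted to GRCh37.

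The distal shared peaks and all lists were chosen with earlier results of these data known. With 1 library per group no p-value was computed: shares have exact Clopper-Pearson 95% intervals and differences Newcombe intervals. Sequence matches used blastn 2.17.0, and a peak of several repeat classes was counted in the first of ribosomal, mitochondrial, GGAAT, alpha satellite length and other tandem. Regions named are the 10 highest by score and by HIF-1α score, the 3 highest of each repeat class, those at the limits of the rule and the densest groups. Some regions and genes that these rules or lists would name are not reported here. Genes of the lists that held a peak, the pair on chromosome 17 and the extremes of the score ratio were named after their values were seen. Overlaps, repeats, word counts and matches were tested on simulated data. The tools were samtools 1.23.1, pysam 0.24.0, statsmodels 0.14.6, scipy 1.17.1 and numba 0.67.0 under Python 3.11.15.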

Additional observations from a re-analysis of the deposited data

How the results depend on the processing

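No paired analysis was possible because no group has more than 1 library. With a score of at least 100 in both HAUSP lists, 191 distal shared peaks remained, of which 60.2% lay near a gap, 10.5% overlapped HIF-1α and 32.5% held a tandem repeat, with a median width of 1398 bp. With a TSS window of 5 kb 60.9% lay near a gap. The share near a gap was 35.9% at a distance of 100 kb, 76.6% at 5 Mb and 32.6% for gaps of at least 1 Mb. HIF-1α peaks with a score of at least 100 overlapped 3.79%. Over the distal shared peaks away from gaps HIF-1α overlapped 12.5% and the median width was 1188 bp, and without the repeat classes HIF-1α overlapped 10.0%. The ribosomal DNA unit in place of the annotated transcripts gave 2.68% instead of 0. A tandem identity of 0.8 gave 1.79% and one of 0.5 gave 47.1%, so the count of tandem repeats depends on this limit. The settings that used every transcript TSS, the ribosomal DNA unit, an identity of 0.5, gaps away from chromosome ends, ranges of the score and peaks without a repeat class were added after the data were seen. The other alternatives moved these values by less than their counting intervals, or the number of peaks by less than 1.5 times. The depth of the libraries is unknown and limits every count of peaks.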
